A study of Mus musculus with 24 samples.

Results

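The immediate early response genes described here were Fos, Fosb, Jun, Junb, Jund, Egr1, Atf3, Ier2, Ier3 and Myc, chosen by name in the annotation of the array. All 10 were on the array, with 16 of its 56605 probes, and 12 of these 16 probes passed the filter on dim probes that left 30003 probes for testing, so that each of the 10 genes was tested. RNA had been measured in the liver of 24 male C57Bl6J mice, bred over 3 generations in 2 lineages, with 1 single-colour array per mouse. The reference mice (STD_Cont, 9 arrays) belonged to the control fatty acid lineage, bred on a growing diet with added high-oleic sunflower oil, and ate a low-fat diet. The HFoleic mice (HFD_Cont, 8 arrays) were of that same lineage and ate an obesogenic diet rich in fat and sucrose, and the HFepa mice (HFD_O3, 7 arrays) ate the obesogenic diet and came from a lineage bred with added fish oil rich in eicosapentaenoic acid (EPA). The EPA lineage was not analysed on the low-fat diet, so that diet, lineage and oil cannot be told apart in HFepa vs. reference. All mice were killed under isoflurane during the fasting period. Whole liver was extracted, in which fewer cells of a type and less RNA per cell cannot be told apart.

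Immediate early genes are transcribed within minutes of a stimulus, from transcription factors that are already present in the cell, and their mRNAs and proteins are short-lived. Fos and Jun proteins pair to form the AP-1 transcription factor, Egr1 is a zinc-finger transcription factor induced through the ERK pathway, Atf3 is a stress-induced factor of the ATF/CREB family, and Myc drives growth and ribosome assembly. In liver they are known for their burst after partial hepatectomy and after growth factor, cytokine or stress signals.

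Regulatory sequence of the members is shown for Fos and Junb, whose correlation across mice passed in 18 of 29 other settings. It is also shown for Fosb, whose start also carries letters that the Egr1 protein is known to bind. The sequences are RefSeq windows of GRCm38.p6, a build other than that of the array, written 5′ to 3′ and ending at the base before the annotated start, with TGACG (the core of the cAMP response element, either strand) and GCGNGGGCG (the EGR site, either strand) in capitals.
Fos, chr12:85473690-85473889, plus strand: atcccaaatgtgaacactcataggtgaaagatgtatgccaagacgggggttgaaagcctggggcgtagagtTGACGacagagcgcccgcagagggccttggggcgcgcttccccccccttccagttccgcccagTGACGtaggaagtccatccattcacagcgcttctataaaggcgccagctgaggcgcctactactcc
Junb, chr8:84978749-84978948, minus strand: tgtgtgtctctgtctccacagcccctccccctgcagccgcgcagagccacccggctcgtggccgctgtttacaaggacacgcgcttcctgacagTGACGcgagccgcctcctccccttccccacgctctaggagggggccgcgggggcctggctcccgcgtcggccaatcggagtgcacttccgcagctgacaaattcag
Fosb, chr7:19310046-19310145, minus strand: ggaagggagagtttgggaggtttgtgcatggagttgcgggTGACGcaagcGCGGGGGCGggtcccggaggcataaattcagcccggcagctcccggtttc
Windows were matched for 7 of the 10 members (Fos, Fosb, Jun, Junb, Jund, Atf3 and Ier3), each reaching 250 bases before to 50 bases after the start. TGACG was found in 4 of these 7 windows, against 20.8% of all 32851 windows, and began at -129 and -66 from the start in Fos, -106 in Junb, -60 in Fosb and -7 in Atf3. The EGR letters began at -50 in Fosb, were in none of the other 6 windows and were in 5.55% of all windows. The full cAMP response element TGACGTCA (1.79% of all windows), of which TGACG is a part, the AP-1 site TGANTCA (7.81%), the E-box CACGTG (7.15%), which is the site of Myc and its partners, and the CArG box of serum response factor (1.63%) were in 0 of the 7 windows. Such matches describe letters in these windows only.

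Between 28804 and 34432 probes per array were well above background, and no spot was saturated. The 6 hepatocyte markers (Alb, Apoa1, Ttr, Cps1, Serpina1c and Tat) were well above background on 24 of 24 arrays, as the label liver states. Reference replicate 5 stood apart, with the mean log2 level of the 4 tested bile duct markers (Krt19, Krt7, Sox9 and Spp1) 1.61 and of 7 stellate cell and fibroblast markers 1.54 above the mean over all mice, whereas the highest values in the HFoleic group were 0.06 and 0.18 and those in the HFepa group 0.21 and 0.52. Results on the members that rest on this mouse are given with and without it. The arrays lay on 3 slides that each held all 3 groups.

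Signals are given as log2 of the median spot signal after quantile normalization, read from the brightest tested probe of a gene, and levels of different genes are not compared. The probes for Fos (mm9, chr12:86818118-86818177), Jun (chr4:94716928-94716987), Junb (chr8:87500843-87500902), Jund (chr8:73224436-73224495), Egr1, Atf3 (chr1:192994547-192994606), Ier2 (chr8:87185211-87185245) and Myc (chr15:61821417-61821476) were well above background on all 24 arrays. Their exon and UTR annotation in mm9 was not used here. The Fosb probe (chr7:19888168-19888227) was well above background on 23 arrays. Ier3 (chr17:35959528-35959587) was near the limit of detection, with 7 of 9 reference, 2 of 8 HFoleic and 5 of 7 HFepa arrays well above background, so that it passed the filter through the reference group alone and is left out of the counts of negative differences.

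The first comparison, HFoleic vs. reference, addressed the effect of the obesogenic diet within the oleic lineage. None of the 10 members passed the test (0 of 10 at an adjusted p under 0.05, limma with Benjamini-Hochberg adjustment), beside 2170 of 30003 probes called over the whole array (7.23%). At an unadjusted p under 0.05 there were 2 members, Jun and Jund, by limma and 1 by the methods' t-test, and 21.1% of all probes by limma. Of the 9 members other than Ier3, the log2 difference was negative for 7, with a median of -0.22, against 50.2% negative and a median of 0 over all tested probes. Without reference replicate 5 it was negative for 5 of 9, with a median of -0.14. Over all 10 members, Ier3 included, the median was -0.21. It was -0.13 without reference replicate 5 and -0.08 without reference replicate 4.

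The Jun family encodes the AP-1 subunits that can pair with themselves or with Fos proteins. Jun lay at 12.27 to 13.01 in the reference mice (median 12.66), at 11.64 to 13.03 in HFoleic (median 12.01) and at 11.73 to 13.10 in HFepa (median 12.48). Most HFoleic mice were low, but their highest mouse was level with the highest reference mouse and the groups overlapped. The HFoleic minus reference difference was -0.49 (SE 0.19, 95% interval -0.88 to -0.10, adjusted p = 0.119 by limma), a 1.41-fold lower mean, with 6 of 8 HFoleic mice under the reference mean. Leaving out HFoleic replicate 3, the highest of its group, gave -0.61 and an adjusted p of 0.0378 by limma. The difference was 0.08, -0.76 and -0.85 on the 3 slides, so that the first slide did not share the sign. The SD of Jun was 0.23 in reference, 0.51 in HFoleic and 0.47 in HFepa mice. This difference in spread was not tested.

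Jund, the family member that is usually expressed without stimulation, lay at 12.63 to 13.80 in reference (median 13.11), 12.79 to 13.27 in HFoleic (median 12.88) and 12.88 to 13.10 in HFepa mice (median 13.01). The highest and the lowest Jund values were both in reference mice, and the HFepa mice lay within 0.23 of each other. The HFoleic minus reference difference was -0.22 (SE 0.10, adjusted p = 0.196 by limma), and -0.14 (adjusted p = 0.299) without reference replicate 5, whose value of 13.80 was the highest. It was -0.29 with an adjusted p of 0.0415 without reference replicate 8, the lowest. A second Jund probe gave -0.09 (SE 0.10, adjusted p = 0.685).

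Junb, a Jun protein that often opposes Jun in AP-1, lay at 12 to 13.07 in reference (median 12.70), 12.07 to 12.74 in HFoleic (median 12.43) and 11.99 to 12.46 in HFepa mice (median 12.16). The HFepa mice sat in the lower part of the reference range, which spanned all 3 groups but for the lowest HFepa mouse. HFoleic minus reference was -0.23 (SE 0.13, adjusted p = 0.309).

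Fos, the partner of Jun in the classical AP-1 dimer, spread widely within each group. It lay at 6.84 to 9.89 in reference (median 8.17), 7.01 to 9.09 in HFoleic (median 7.86) and 7.22 to 9.33 in HFepa mice (median 8.21). The HFoleic minus reference difference was -0.22 with a 95% interval of -0.99 to 0.55 (adjusted p = 0.802 by limma), and its values on the 3 slides were 0.53, 0.25 and -1.43, without a common sign. It was -0.01 without reference replicate 4, the highest mouse, and -0.39 without reference replicate 6, the lowest. Fosb, its relative, lay between 5.78 and 6.71 over all mice, and HFoleic minus reference was 0.01 (95% interval -0.20 to 0.23).

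Egr1 lay at 8.0 to 11.09 in reference (median 9.50), 8.66 to 10.51 in HFoleic (median 9.43) and 8.32 to 9.75 in HFepa mice (median 9.14). The reference mice covered the whole range of the HFoleic and HFepa mice. HFoleic minus reference was -0.04 (95% interval -0.72 to 0.64, adjusted p = 0.967). Atf3 lay at 6.14 to 7.90, 6.48 to 8.07 and 6.35 to 7.89 in reference, HFoleic and HFepa mice, with medians of 6.67, 6.72 and 6.63, and its HFoleic minus reference difference was -0.02 (95% interval -0.54 to 0.49).

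**Figure D1:**
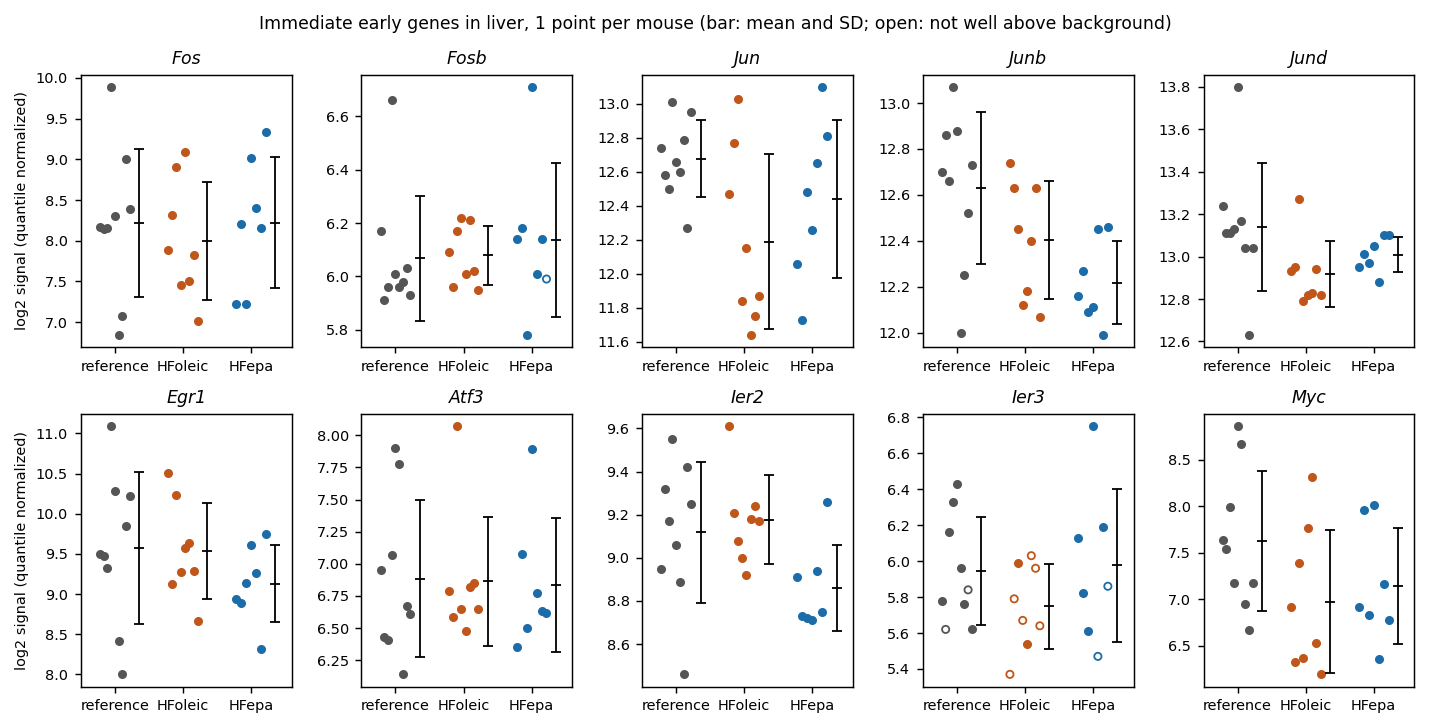
Log2 signal of the 10 genes (vertical axis, log2 units, each panel with its own scale) in reference, HFoleic and HFepa mice, 1 point per mouse in order of replicate number, with mean and SD as bars and open points where the probe was not well above background. The 3 groups overlapped for all 10 genes, and single mice stood high for Atf3 (8.07 in HFoleic) and Fosb (6.66 in reference and 6.71 in HFepa).

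Myc had the largest of the 10 differences in HFoleic vs. reference. It lay at 6.67 to 8.86 in reference (median 7.54), 6.19 to 8.31 in HFoleic (median 6.72) and 6.36 to 8.01 in HFepa mice (median 6.91). The HFoleic and HFepa medians were below the reference median, with wide overlap. HFoleic minus reference was -0.66 (SE 0.33, 95% interval -1.33 to 0.02, adjusted p = 0.252 by limma), with 6 of 8 HFoleic mice under the reference mean, and it was negative on each slide (-0.91, -0.85 and -0.21). Without reference replicate 5, the highest, it was -0.50. A second Myc probe gave -0.21 (SE 0.11, adjusted p = 0.281).

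Ier2, a nuclear protein of the immediate early response, lay at 8.46 to 9.55 in reference (median 9.17), 8.92 to 9.61 in HFoleic (median 9.18) and 8.71 to 9.26 in HFepa mice (median 8.75). All but 1 of the HFepa mice were at 8.94 or lower. HFoleic minus reference was 0.06 (95% interval -0.19 to 0.30). Ier3, which is linked to the control of apoptosis, lay between 5.37 and 6.75 over all mice and its measured HFoleic minus reference difference was -0.20 (95% interval -0.50 to 0.11), with 6 of 8 HFoleic arrays not well above background. It was -0.48 with the processed signal and -0.12 with normexp background correction.

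The second comparison, HFepa vs. reference, shared the reference arrays with the first. None of the 10 members passed the test (0 of 10 by limma, with 2 at an unadjusted p under 0.05, and 0 of 10 by the methods' t-test, with 1 unadjusted), beside 0.393% of all probes called (118 of 30003). The unadjusted share over all probes was 13.5% by limma. Of the 9 members other than Ier3, 7 had a negative log2 difference, with a median of -0.24, against 48.3% negative and a median of 0 over all probes. Without reference replicate 5 these were 6 of 9, with a median of -0.24.

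Junb had the smallest p-value of the members in HFepa vs. reference. Its difference was -0.41 (SE 0.13, 95% interval -0.68 to -0.14, adjusted p = 0.142 by limma), with 7 of 7 HFepa mice under the reference mean, and it was negative on each of the 3 slides (-0.62, -0.18 and -0.46). Without reference replicate 5 it was -0.38 (adjusted p = 0.222), and over 35 other settings and left-out mice it ranged from -0.49 to -0.36 with adjusted p-values of 0.0525 to 0.276. The adjusted p did not pass the threshold in any of them. Ier2 was -0.26 (SE 0.12, adjusted p = 0.367) and negative on each slide (-0.21, -0.17 and -0.40).

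Myc was -0.49 (95% interval -1.19 to 0.22, adjusted p = 0.584), Egr1 -0.45 (95% interval -1.15 to 0.26, adjusted p = 0.627), Jun -0.24 (95% interval -0.64 to 0.16) and Jund -0.13 (95% interval -0.35 to 0.08). Without reference replicate 5, Jund was -0.05 (adjusted p = 0.857). The intervals of Myc and Egr1 still allow a mean lower by more than 1 log2 unit. Fos (0.01), Fosb (0.07), Ier3 (0.03) and Atf3 (-0.05) lay close to 0, although the interval of Fos ran from -0.79 to 0.80.

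The third comparison, HFepa vs. HFoleic, addressed lineage under the obesogenic diet. None of the 10 members passed the test (0 of 10 by limma and by the methods' t-test, each with 1 at an unadjusted p under 0.05), and 0% of all probes were called (0 of 30003, with 2910 at an unadjusted p under 0.05). The member past the unadjusted threshold by limma was Ier2, with a difference of -0.32 (SE 0.13, 95% interval -0.58 to -0.05, adjusted p = 0.417), 6 of 7 HFepa mice under the HFoleic mean and -0.57, -0.19 and -0.15 on the 3 slides. Junb was -0.18 (95% interval -0.46 to 0.09), Egr1 -0.41 (95% interval -1.13 to 0.31), Jun 0.25 (95% interval -0.16 to 0.67) and Ier3 0.23 (95% interval -0.10 to 0.55). Ier3 was 0.66 with the processed signal and 0.09 without HFepa replicate 4, its highest mouse. Fos was 0.23, Myc 0.17, Jund 0.09, Fosb 0.06 and Atf3 -0.03, with adjusted p-values of 0.839 or more. The second Jund probe was -0.06, of the opposite sign.

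**Figure D2:**
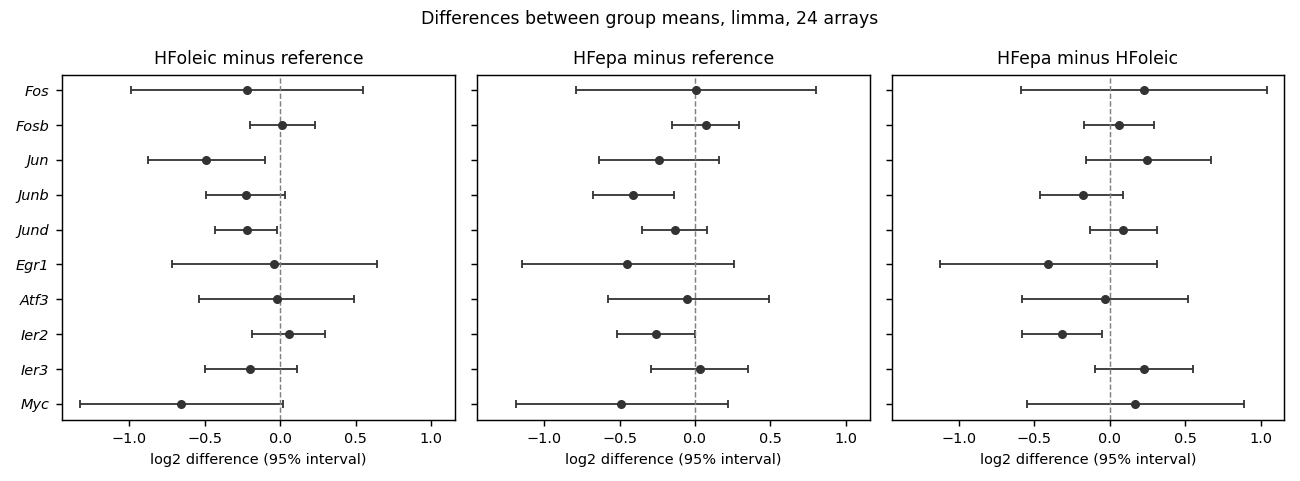
Difference of group means in log2 units (horizontal axis) with its 95% interval from limma, for the 10 genes (vertical axis) in HFoleic minus reference, HFepa minus reference and HFepa minus HFoleic. Jun (-0.49) and Jund (-0.22) in the left panel, Junb (-0.41) and, barely, Ier2 (-0.26) in the middle panel and Ier2 (-0.32) in the right panel have intervals that leave out 0, without adjustment for the number of probes.

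What set several members apart from most probes was their spread among mice of 1 group. The residual SD within groups was 0.82 log2 units for Fos, 0.73 for Egr1, 0.73 for Myc, 0.55 for Atf3 and 0.41 for Jun, against a median of 0.18 and a 90th percentile of 0.36 over all tested probes. The percentile among the tested probes was 99.4 for Fos, 99.0 for Egr1, 97.4 for Atf3 and 93.3 for Jun. Among probes of similar mean signal it was 99.4 for Fos and 99.1 for Egr1. Ier3 (0.32), Junb (0.27), Ier2 (0.26), Fosb (0.22) and Jund (0.21) were between the median and the 90th percentile. The second Myc probe had a residual SD of 0.23 (percentile 70), so that the wide spread of Myc was seen with its brightest probe only. These positions describe the probes and were not tested.

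From the lowest to the highest of the 24 mice, the signal of Egr1 differed 8.55-fold, that of Fos 8.29-fold, that of Myc 6.39-fold and that of Atf3 3.80-fold. Jund differed 2.25-fold, Fosb 1.91-fold and the second Myc probe 2.04-fold. Group membership accounted for 1.85% of the variance of Fos, 0.153% of that of Atf3, 7.62% of that of Egr1 and 15.2% of that of Myc. It accounted for 30.6% of that of Junb, the largest share among the 10 representative probes. These shares were not adjusted for the number of groups and were not tested, and chance alone gives some share.

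**Figure D3:**
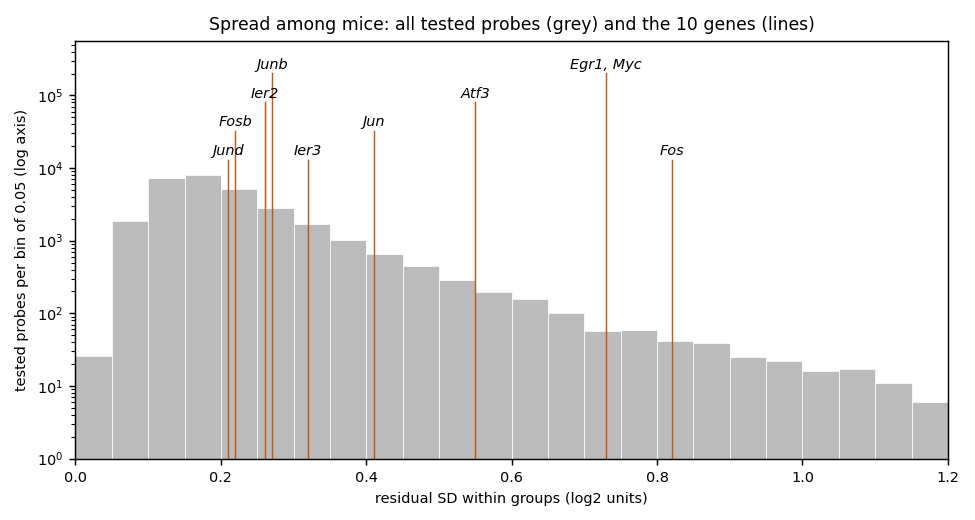
Number of tested probes (vertical axis, log scale) by residual SD within groups in log2 units (horizontal axis, bins of 0.05), with lines at the values of the 10 genes. Fos (0.82), Egr1 and Myc (0.73) and Atf3 (0.55) lie in the right tail, and Jund (0.21) and Fosb (0.22) lie close to the median of 0.18. The second Myc probe (0.23) is not drawn.

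The same mice were high for several members. Reference replicate 4 was the highest of its group for Fos (9.89), Egr1 (11.09), Junb (13.07) and Ier2 (9.55). HFepa replicate 7 was the highest of its group for the same 4 genes (9.33, 9.75, 12.46 and 9.26), and HFoleic replicate 1 was the highest for Egr1 (10.51), Junb (12.74) and Ier2 (9.61). Other peaks lay in other mice: reference replicate 5 was the highest of its group for Jund (13.80), Atf3 (7.90), Ier3 (6.43) and Myc (8.86), and HFepa replicate 4 for Fosb (6.71), Atf3 (7.89), Ier3 (6.75) and Myc (8.01). The members did not fall into 2 clean sets. Reference replicate 4 was also the highest of its group for Fosb (6.66) and Jun (13.01), and HFepa replicate 7 for Jund (13.1). In HFoleic mice Fos was highest in replicate 5 (9.09).

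Correlations over the 24 mice, after each group mean was subtracted, were computed for all 45 pairs of members, with permutation of mice within groups. The Pearson correlation was positive for 37 of 45 pairs (median 0.23) and passed at an adjusted p under 0.05 for 9 pairs, all positive, and 17 pairs had an unadjusted p under 0.05. Fos and Egr1 had r = 0.72 (Spearman rho = 0.64, permutation p = 0.00024 and 0.00141, adjusted p = 0.00607 and 0.0211), and r = 0.59 without the 2 mice farthest from the median of Fos. Within slides it was 0.55, 0.74 and 0.90. Junb and Egr1 had r = 0.74 (rho = 0.68, permutation p = 0.00027 and 0.00112, adjusted p = 0.00607 and 0.0211), 0.63 without the 2 mice farthest from the median of Junb, and 0.78, 0.83 and 0.64 within slides. Junb and Ier2 had r = 0.70 (rho = 0.73, permutation p = 0.00055 and 0.00028, adjusted p = 0.00825 and 0.0126), 0.64 without 2 mice, and 0.86, 0.56 and 0.73 within slides. These 3 pairs passed under all 29 other settings and left-out mice.

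Egr1 and Ier2 had r = 0.69 (rho = 0.52, permutation p = 0.00104 and 0.0174, adjusted p = 0.0117 and 0.0871), 0.47 without 2 mice and 0.73, 0.47 and 0.67 within slides, and missed the threshold without reference replicate 7. Fos and Junb had r = 0.57 (rho = 0.51, permutation p = 0.00697 and 0.016, adjusted p = 0.0348 and 0.0871), 0.35 without 2 mice and 0.58, 0.54 and 0.58 within slides, and passed in 18 of 29 other settings. Fos, Egr1, Junb and Ier2 thus made up 5 of the 9 pairs that passed. By group, the correlation of Fos with Egr1 was 0.91 in reference, 0.47 in HFoleic and 0.57 in HFepa mice, and these differences were not tested.

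The other 4 pairs joined Atf3 with Jund, Myc and Ier3, and Ier3 with Fosb, where Ier3 was near the limit of detection. Jund and Atf3 had r = 0.61 (rho = 0.55, permutation p = 0.00331 and 0.00947, adjusted p = 0.027 and 0.0609), 0.63 without 2 mice and 0.91, 0.59 and 0.30 within slides. Atf3 and Myc had r = 0.58 (rho = 0.45, permutation p = 0.0042 and 0.0341, adjusted p = 0.027 and 0.128), 0.56 without 2 mice, 0.85, 0.56 and 0.40 within slides, and -0.08 and 0.65 in the 2 rows of the slides, so that it did not hold in the first row. Atf3 and Ier3 had r = 0.57 (rho = 0.46, permutation p = 0.00574 and 0.0341, adjusted p = 0.0323 and 0.128), 0.39 without 2 mice and 0.72, 0.12 and 0.84 within slides. Fosb and Ier3 had r = 0.65 (rho = 0.56, permutation p = 0.00377 and 0.00836, adjusted p = 0.027 and 0.0609), 0.39 without 2 mice and 0.51, 0.34 and 0.76 within slides.
Without reference replicate 5, with all steps repeated, r was 0.49 for Jund with Atf3, 0.50 for Atf3 with Myc, 0.49 for Atf3 with Ier3 and 0.58 for Fos with Junb, and these 4 pairs missed the threshold (adjusted permutation p = 0.132, 0.106, 0.116 and 0.0524). Without HFepa replicate 4, r was 0.47 for Fosb with Ier3, 0.53 for Atf3 with Myc and 0.42 for Atf3 with Ier3, which also missed it (adjusted permutation p = 0.117, 0.0754 and 0.192). Jund with Atf3 missed it without HFoleic replicate 3 too (r = 0.53). Jund with Atf3, Fosb with Ier3 and Fos with Junb also missed it under both scalings at the 75th percentile, in which r was 0.51 to 0.57 and the adjusted permutation p 0.074 to 0.0825. Jun, the classical partner of Fos, had r = 0.37 with Fos (permutation p = 0.0743) and was in none of the 9 pairs.

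**Figure D4:**
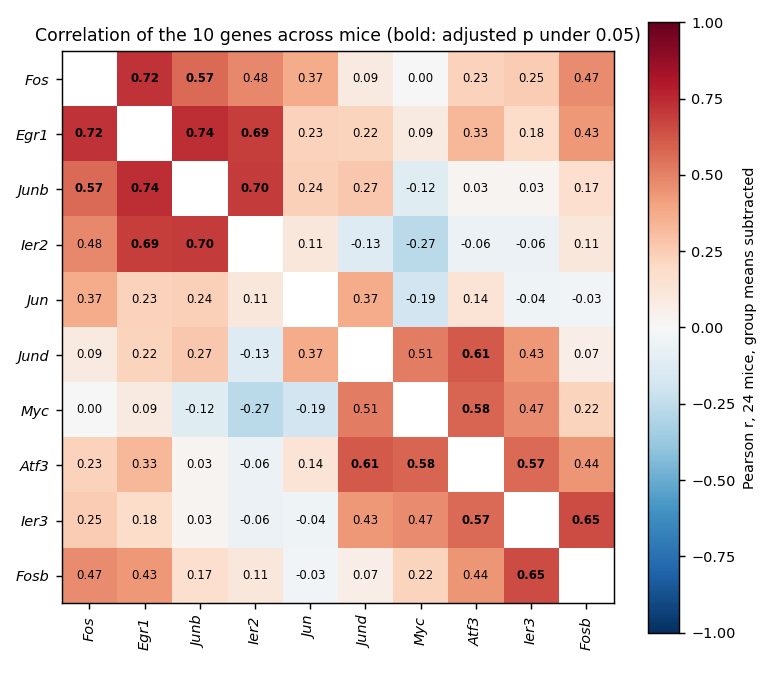
Pearson r of the log2 signals of each pair of the 10 genes over 24 mice with group means subtracted (colour and printed value, scale from -1 to 1), in bold where the adjusted permutation p was under 0.05. Fos, Egr1, Junb and Ier2 have r of 0.48 to 0.74 with each other, and Jund, Myc, Atf3 and Ier3 of 0.43 to 0.61. Of these pairs, Fos with Ier2, Jund with Myc, Jund with Ier3 and Ier3 with Myc did not pass. When reference replicate 5 was left out of the correlation alone, the ranges were 0.49 to 0.74 and 0.30 to 0.51.

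The genes outside the list whose profile was most like that of a member were sought among 19282 genes, by Pearson r over the 24 mice with group means subtracted, as a description with no test. Nr4a1, an orphan nuclear receptor that is itself an immediate early gene, came first for Fos (0.72), Junb (0.79) and Egr1 (0.80). It ran from 8.50 to 13.15 in reference, 9.37 to 11.63 in HFoleic and 8.36 to 11.89 in HFepa mice, with reference replicate 4 and HFepa replicate 7 the highest of their groups, as for Fos, Egr1, Junb and Ier2. Btg2, an antiproliferative early gene, came next after Bbs2 for Egr1 (0.71). The gene most like Ier2 was Dusp6, a phosphatase that switches ERK off (0.80), followed by Sardh (0.73) and Hsd3b6 (0.69).

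For the other members the nearest genes were of other kinds. Ier3 was most like Stab1 (0.86), a scavenger receptor of sinusoidal endothelium and macrophages, and Vwf (0.83), von Willebrand factor of endothelial cells. Jund was most like Arf6 (0.88, and 0.77 without reference replicate 5), Gucy2c (0.85, and 0.67 without it) and LOC102633627 (0.82, and 0.60 without it). Atf3 was most like Prkcb (0.81), Lrrc14b (0.80) and Haus8 (0.80), Myc was most like Ccrn4l (0.76), Dync1li2 (0.75) and Atp6v0b (0.75), Fosb was most like Trim35 (0.76), Slc31a2 (0.75) and Hao2 (0.75), and Jun was most like Adsl (0.70), Plcxd3 (0.69) and Serpinb9f (0.68). Next after Nr4a1 came D5Ertd605e (0.65) for Fos, Stap2 (0.70) and Bbs2 (0.70) for Junb and Bbs2 (0.72) for Egr1.

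**Figure D5:**
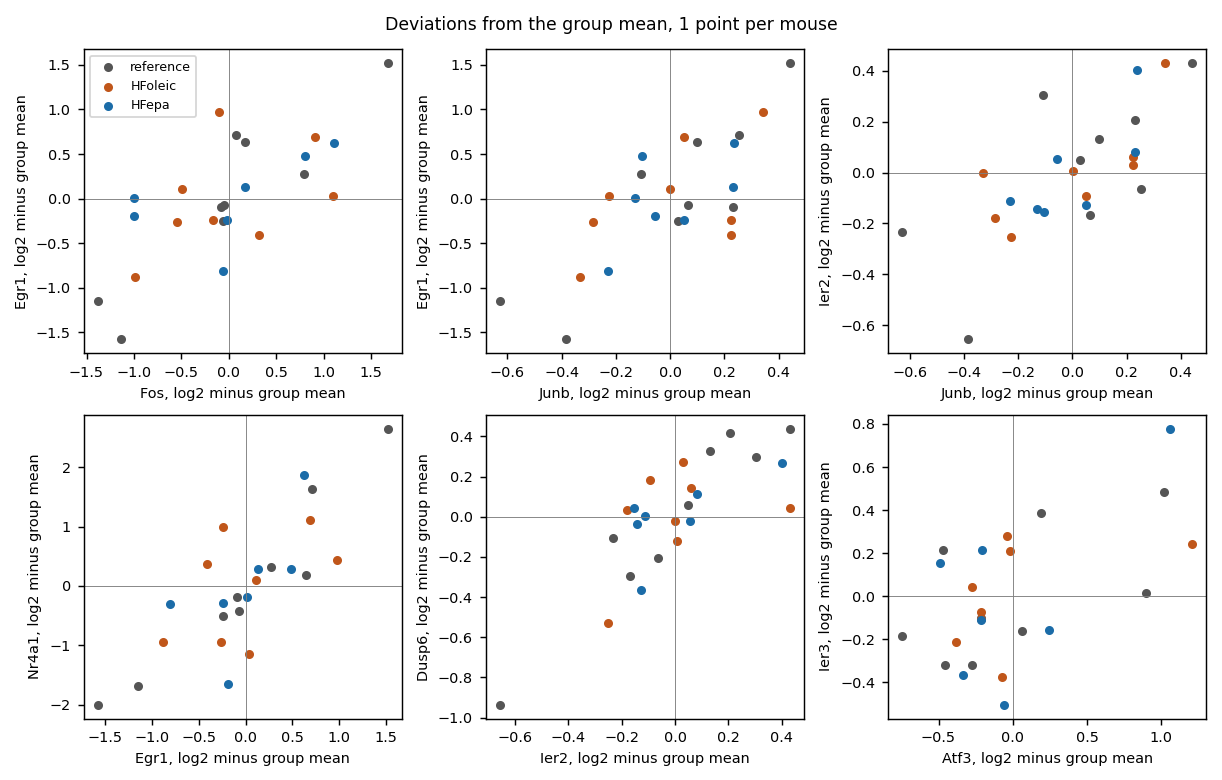
Log2 signal minus the group mean for 6 pairs of genes (both axes, log2 units), 1 point per mouse coloured by group. Fos with Egr1, Junb with Egr1, Junb with Ier2, Egr1 with Nr4a1 and Ier2 with Dusp6 run upward (r of 0.70 to 0.80), with reference replicate 4 at the upper right, and in Atf3 with Ier3 (r = 0.57) a few high mice stand apart from the rest.

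The members were also set against the level of 8 marker lists and 2 measures of array quality, in 100 relations over the 24 mice with group means subtracted. None passed the adjusted threshold by permutation, with 14 at an unadjusted p under 0.05. The largest were of Ier3 with the 6 neutrophil and monocyte markers (r = 0.67, rho = 0.56, permutation p = 0.00143 and 0.00804, adjusted p = 0.0715 and 0.168, r = 0.42 without 2 mice) and with the 7 stellate cell and fibroblast markers (r = 0.61, rho = 0.50, permutation p = 0.00109 and 0.0147, adjusted p = 0.0715 and 0.21, r = 0.41 without 2 mice). Atf3 had r = 0.58 with the stellate cell and fibroblast markers and 0.56 with the log2 median raw signal of the array (adjusted permutation p = 0.131 for both). Without reference replicate 5, r of Ier3 was 0.62 with the neutrophil and monocyte markers and 0.57 with the stellate cell and fibroblast markers. That of Atf3 was then 0.46 with the stellate cell and fibroblast markers and 0.47 with the raw signal. Fos and Egr1 had r of 0.04 and 0.22 with the raw signal of the array, and Junb and Ier2 had 0.11 and 0.10. In HFoleic vs. reference, Lrat (0.56, 1 of 7 stellate cell and fibroblast markers) rose. Sox9 (-0.65, 1 of 4 bile duct markers), Cps1 (-0.89) and Tat (-0.63, with Cps1 2 of 6 hepatocyte markers) fell. These small counts stand beside 7.23% of all probes called and were not tested against that share. Of the 7 stellate cell and fibroblast markers 4 had a negative difference (median -0.09). The Sox9 difference includes reference replicate 5 and is not given without it. The other markers did not pass by limma in any comparison. The part of other cell types in the spread of Ier3, which was near the limit of detection, and of Atf3 was not tested.

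Around the members, the pathway was read from lists of related genes. Of 29 tested genes among 32 other immediate early and delayed early genes, 1 rose and 1 fell in HFoleic vs. reference (limma, adjusted p under 0.05). The counts of this and the following lists in HFoleic vs. reference stand beside 7.23% of all probes called, and 2 of 29 is close to that share. Gadd45b, a stress-induced growth arrest gene, fell by 1.14 on the log2 scale (SE 0.29, adjusted p = 0.0168), from 8.87 to 10.60 in reference to 8.03 to 10.08 in HFoleic mice, with 7 of 8 HFoleic mice under the reference mean. Bhlhe40, a clock-linked repressor, rose by 0.75 (SE 0.21, adjusted p = 0.0265), with 8 of 8 HFoleic mice above the reference mean. In HFepa vs. reference 1 of the 29 rose, Klf2, a factor of endothelial cells (0.56, SE 0.13, adjusted p = 0.0499), beside 0.393% of all probes called. The call of Klf2 held in 6 of 35 other settings and left-out mice. The median difference of the 29 genes was -0.02 in both comparisons.

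Among 17 tested genes of negative feedback, 2 rose in HFoleic vs. reference, beside 7.23% of all probes called in either direction. Spred1, an inhibitor of the Ras to ERK pathway, rose by 0.71 (SE 0.13, adjusted p = 0.0023) from 8.16 to 9.16 in reference to 9.09 to 9.60 in HFoleic mice. Dusp6, the gene nearest to Ier2 across mice, rose by 0.59 (SE 0.15, adjusted p = 0.0159), whereas Ier2 itself differed by 0.06 in that comparison. In HFepa vs. reference Spred1 was 0.57 with an adjusted p of 0.0554, and 0 of 17 were called (4 at an unadjusted p under 0.05, beside 13.5% of all probes). Of 25 tested kinases and factors upstream of the members, 1 fell in HFoleic vs. reference, Elk4 (-0.22, adjusted p = 0.033), a partner of serum response factor. None of the 25 was called in HFepa vs. reference (5 unadjusted, beside 13.5% of all probes), where the smallest p was that of Mapkapk2 (-0.25, adjusted p = 0.0981).

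In the same comparison, with 7.23% of all probes called, 2 of the 16 partners of AP-1 and ATF proteins were called, 2 of 11 tested Myc partners and antagonists, and 3 of 20 Myc targets of growth and ribosome assembly. These counts are small and were not tested against that share, and that of the Myc partners includes Mycn, which passed the filter through the HFoleic group alone. Of the AP-1 and ATF partners, Mafg rose (0.25, adjusted p = 0.0168) and Atf5 fell (-0.37, adjusted p = 0.0183) in HFoleic vs. reference. Of 11 tested Myc partners and antagonists 2 rose: Mycn, a Myc paralog, by 1.08 (SE 0.17, adjusted p = 0.000769), and Mxd1, an antagonist that competes for Max, by 0.22 (adjusted p = 0.0156). Mycn was at 6.43 to 7.46 in HFoleic and at 5.37 to 6.84 in reference mice, where 6 of 9 arrays were well above background, and passed the filter through the HFoleic group alone. Myc itself had a difference of opposite sign that did not pass. Mycl was -0.61 (adjusted p = 0.051). Of 20 Myc targets of growth and ribosome assembly, Nme2 (0.19) and Cad (0.36) rose and Polr1b (-0.18) fell, with adjusted p-values of 0.00858, 0.0248 and 0.028, and the median of the 20 was -0.06. Odc1 was -0.22 (adjusted p = 0.0536) and Maff, of the early gene list, 0.81 (adjusted p = 0.0528). Spred1 and Atf5 passed in HFoleic vs. reference under every other setting, whereas Elk4 passed in 23 of 35, Polr1b in 28, Bhlhe40 in 29 and Cad in 30. Mycn entered the test through the HFoleic group, in which it was high, so that its calls and p-values are not used as support. Gadd45b (adjusted p = 0.0547) and Dusp6 (0.0646) were not called by the methods' t-test, Mafg and Mxd1 were not with the replicate block, and Nme2 was not with either scaling at the 75th percentile. In HFepa vs. HFoleic, 0 genes of these lists were called by limma or by the methods' t-test. At an unadjusted p under 0.05 by limma there were 6 of the 29 early genes and 4 of the 17 feedback genes, beside 9.7% of all probes. The counts were 2 of 25 for upstream kinases and factors, 0 of 16 for AP-1 and ATF partners, 3 of 11 for Myc partners and 2 of 20 for Myc targets. The smallest p-values by limma were those of Mycn (-0.93, adjusted p = 0.104), Klf2 (0.63, adjusted p = 0.105) and Gadd45b (1.29, adjusted p = 0.161).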

How the data were processed

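Liver RNA of 24 mice was measured on single-colour 60-base Agilent arrays, and the scanner files were made by the authors with Agilent Feature Extraction 10.10.1.1. The deposited scanner columns used were spot intensity (median, mean, background and processed signal) and spot flags, and the deposited series table held log2 values whose filter is not given in the sources used here (32176 probes, with 2550 empty cells). Its values correlated with log2 of the median signal at 0.999677 to 0.999988 per array. Groups came from the labels (9 reference, 8 HFoleic, 7 HFepa). Whether mice shared a litter is not given in the sources used here.

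Control and outlier spots were left out, spots of a probe averaged, and probes kept that were well above background on 75% of the arrays of a group. Log2 median signals were quantile normalized, and groups compared with limma 3.58.1 in R 4.3.3 over all 24 arrays, with Benjamini-Hochberg adjustment over 30003 probes and a threshold of 0.05. Correlations used 100000 permutations. The brightest tested probe stood for a gene. All 10 members are named, and other genes where their list gene was called or had the smallest p-values, plus the 3 most alike per member. The members and lists were chosen with earlier results of these data known. The test was tried on simulated data. Alternatives were the deposited table, the processed signal or median signal scaled at the 75th percentile, normexp background correction with an offset of 50, 2 other filters, slide, slide row or replicate number as a block, the methods' t-test, only the groups compared, and each mouse left out. Counting members without Ier3 was chosen after seeing the data.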

Additional observations from a re-analysis of the deposited data

Results flagged for a closer look

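In 7 of 36 combinations of probe and group, the highest mouse lay farther from the next than Dixon's test allows at 95%. With normally distributed values, chance gives such a mouse at either end in about 1 of 20 groups. The 36 combinations share mice and include second probes, so that they are not independent. Atf3 was 8.07 in HFoleic replicate 3, with the next mouse at 6.85. Fosb was 6.71 in HFepa replicate 4 (next 6.18) and 6.66 in reference replicate 4 (next 6.17). Ier2 was 9.61 in HFoleic replicate 1 (next 9.24) and 9.26 in HFepa replicate 7 (next 8.94). Jund was 13.27 in HFoleic replicate 3 (next 12.95), and its second probe was 13.65 in reference replicate 5 (next 13.19), the mouse with high bile duct and stellate cell markers.

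A second Junb probe that did not pass the filter on dim probes read 9.19 in HFoleic replicate 6, whereas the highest reference mouse read 6.12 and the HFoleic median was 5.81. The other Junb probes did not share this: in the same mouse the brightest read 12.4, level with the HFoleic mean of 12.4. The remaining dim probe read 5.05 there and was not well above background. The cause of the single high value was not tested.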

How the results depend on the processing

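No member was called in any comparison under the other settings, but Jun was without HFoleic replicate 3 and Jund without reference replicate 8, so that 0 to 1 members were called in HFoleic vs. reference with 1 mouse left out. The 118 probes called in HFepa vs. reference became 60 with the processed signal scaled at the 75th percentile, 13 with only the groups compared, 0 with no filter on dim probes, 0 with the methods' t-test and 0 to 496 with 1 mouse left out (0 without HFepa replicate 2 or 6 or reference replicate 2, 496 without reference replicate 8). In HFepa vs. HFoleic 2 probes were called when all arrays had to be well above background and 0 to 14 with 1 mouse left out, the most without HFepa replicate 5. The number of correlated pairs was 5 to 12 with 1 mouse left out, the fewest without reference replicate 7. The causes were not tested.

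Differences close to 0 turned sign. With the replicate block, HFoleic minus reference was 0.04 for Egr1 and 0 for Fosb, and HFepa minus reference was -0.03 for Ier3. With the processed signal, Fosb was -0.03 in HFoleic minus reference and Atf3 0 in HFepa minus HFoleic. Fos was -0.01 in HFepa minus reference with normexp and when rows of a slide were the block. With 1 mouse left out, HFoleic minus reference ranged from -0.23 to 0.15 for Egr1, -0.02 to 0.11 for Ier2, -0.19 to 0.10 for Atf3 and -0.01 to 0.09 for Fosb. HFepa minus reference ranged from -0.10 to 0.11 for Ier3, -0.23 to 0.08 for Atf3, -0.03 to 0.14 for Fosb and -0.18 to 0.21 for Fos, and HFepa minus HFoleic from -0.20 to 0.15 for Atf3 and -0.04 to 0.12 for Fosb.

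Same-numbered arrays of different groups correlated at -0.30 to 0.35 (22 pairs, 5 over 0.1) and 3 of 24 arrays correlated best with their own number, so the numbers were not taken to pair mice. The replicate block called 1747 probes in HFoleic vs. reference, 104 in HFepa vs. reference and 0 in HFepa vs. HFoleic, and 0 members in each. Ier3 was near background, and the number of arrays limits the precision for Fos, Egr1 and Myc.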
